A study of Homo sapiens with 10 samples.

Results

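The genes described here are the working parts of the hypoxia-inducible factor (HIF) pathway and genes outside glycolysis that HIF is known to induce. They were found by their symbols in the deposited table, where all 32 were present among 54628 symbols. The 32 are 3 HIF subunits, 4 oxygen-sensing hydroxylases, the ubiquitin ligase subunit VHL and 24 targets. RNA was measured in NK-92, an established human line from a natural killer cell lymphoma, in 2 libraries for each of 5 groups. Deferoxamine (DFO), an iron chelator, was given at 500 µM for 6 h or 24 h. PPMX-T003, called T003 below, binds transferrin receptor 1 as an antibody and was given at 10 µg/mL for 6 h or 24 h. Untreated cells, labelled as having received nothing, were collected at 0 h, and all groups came from the same line grown with human serum. No untreated cells were sampled at 6 h or 24 h, so an effect of an agent and an effect of time in culture cannot be told apart in the comparisons with untreated cells.

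HIF is a pair of an alpha subunit (HIF-1 alpha from HIF1A or HIF-2 alpha from EPAS1) and ARNT, its stable partner. The prolyl hydroxylases EGLN1, EGLN2 and EGLN3 use iron, oxygen and 2-oxoglutarate to mark the alpha subunit, VHL binds the marked protein, and it is degraded. HIF1AN is a related iron-dependent enzyme that hydroxylates an asparagine and blocks the binding of coactivators. Iron chelators are known to stabilise HIF alpha protein in many cell types. Control of HIF-1 alpha lies largely at the protein, which was not measured here, so the question open to these data is whether transcripts of the pathway and of its targets changed.

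The libraries held 107117892 to 143575614 estimated counts each, and levels are given in CPM, counts per 1e6 counts of the library after TMM scaling. The summed level of 9 markers of NK cells was 2074 to 2280 CPM, with 2265 to 2280 with T003 at 24 h, against 2172 to 2182 in untreated cells. The 4 epithelial markers summed to at most 0.0339 CPM, the 4 erythroid ones to 0.161, the 4 B cell markers to 0.329 and the 3 fibroblast markers to 0.875, and the 4 monocyte and macrophage markers to 2.20 to 3.38 CPM. Among 5 T cell markers CD3G and CD8B were listed at 0, and TRAC held nearly all of the sum. That sum was 19.6 to 21.2 CPM with DFO at 6 h, 18.6 to 22.8 with DFO at 24 h, 14.7 to 24.2 with T003 at 6 h and 24.2 to 24.6 with T003 at 24 h, against 16.2 to 16.5 CPM in untreated cells. Its part in the results was not tested. TFRC, the gene of transferrin receptor 1 and itself a gene that hypoxia and low iron are known to raise, averaged 353 CPM with DFO and 428 with T003 at 6 h, and 834 with DFO and 846 with T003 at 24 h, against 171 CPM in untreated cells.

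The promoters of 4 genes are shown first because they carry the short motif that HIF binds and stand for different outcomes below. BHLHE40 fell with the smallest adjusted p. MAFF had the largest rise among called members. EGLN1 and CA9 are classic targets, one expressed and one nearly silent. Each line runs 5′ to 3′ on the strand of its gene, from 250 bases before to 50 bases after a RefSeq start (GRCh38.p14), with every copy of ACGTG or GCGTG in capitals, on either strand. On the opposite strand these read CACGT and CACGC.
BHLHE40: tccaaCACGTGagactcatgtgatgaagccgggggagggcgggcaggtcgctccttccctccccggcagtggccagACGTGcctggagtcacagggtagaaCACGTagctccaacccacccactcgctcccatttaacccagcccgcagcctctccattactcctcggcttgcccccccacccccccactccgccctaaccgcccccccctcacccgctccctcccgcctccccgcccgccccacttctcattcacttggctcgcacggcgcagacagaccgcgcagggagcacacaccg
MAFF: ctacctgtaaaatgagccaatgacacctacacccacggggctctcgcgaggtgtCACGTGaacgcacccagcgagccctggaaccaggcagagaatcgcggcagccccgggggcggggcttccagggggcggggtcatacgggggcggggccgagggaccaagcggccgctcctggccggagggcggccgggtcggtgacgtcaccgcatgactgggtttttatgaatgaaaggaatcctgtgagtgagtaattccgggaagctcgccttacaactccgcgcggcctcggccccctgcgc
EGLN1: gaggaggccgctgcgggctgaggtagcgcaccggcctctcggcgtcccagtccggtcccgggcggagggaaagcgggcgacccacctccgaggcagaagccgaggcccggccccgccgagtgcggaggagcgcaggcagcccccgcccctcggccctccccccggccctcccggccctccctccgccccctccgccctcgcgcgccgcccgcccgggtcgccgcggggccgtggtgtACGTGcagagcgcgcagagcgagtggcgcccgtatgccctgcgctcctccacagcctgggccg
CA9: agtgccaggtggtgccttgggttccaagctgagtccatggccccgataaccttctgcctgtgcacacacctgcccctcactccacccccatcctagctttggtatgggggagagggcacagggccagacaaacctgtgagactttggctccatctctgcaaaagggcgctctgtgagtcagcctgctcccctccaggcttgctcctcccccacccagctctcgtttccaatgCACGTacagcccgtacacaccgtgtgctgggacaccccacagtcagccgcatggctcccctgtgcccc
The windows are chr3:4979187-4979486 on the plus strand for BHLHE40, chr22:38201744-38202043 on the plus strand for MAFF, chr1:231422238-231422537 on the minus strand for EGLN1 and chr9:35673678-35673977 on the plus strand for CA9.

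BHLHE40 held 4 copies, with the farthest beginning at -245 relative to the start and the nearest at -149. A pair of these is one CACGTG, which reads the same on both strands and therefore counts on each. MAFF held a single CACGTG at -196. EGLN1 had ACGTG at -13 on its own strand, and CA9 had it at -18 on the opposite strand. Of the 32 genes 24 had a window in the RefSeq promoter table, and 15 of the 24 (62.5%) held ACGTG, against 21.6% of 27305 promoters of the same length. GCGTG stood in 8 of 24 (33.3%), against 36.3% of all. Either motif stood in 18 of 24 (75%) and in 48.4% of all promoters. The genes were listed as HIF targets or HIF pathway genes, and some of the best known motifs were found in these very promoters, so the excess describes the list. YEATS2 and RORA, neither with a copy, had windows at a start inside the gene's outermost span.

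**Figure D1:**
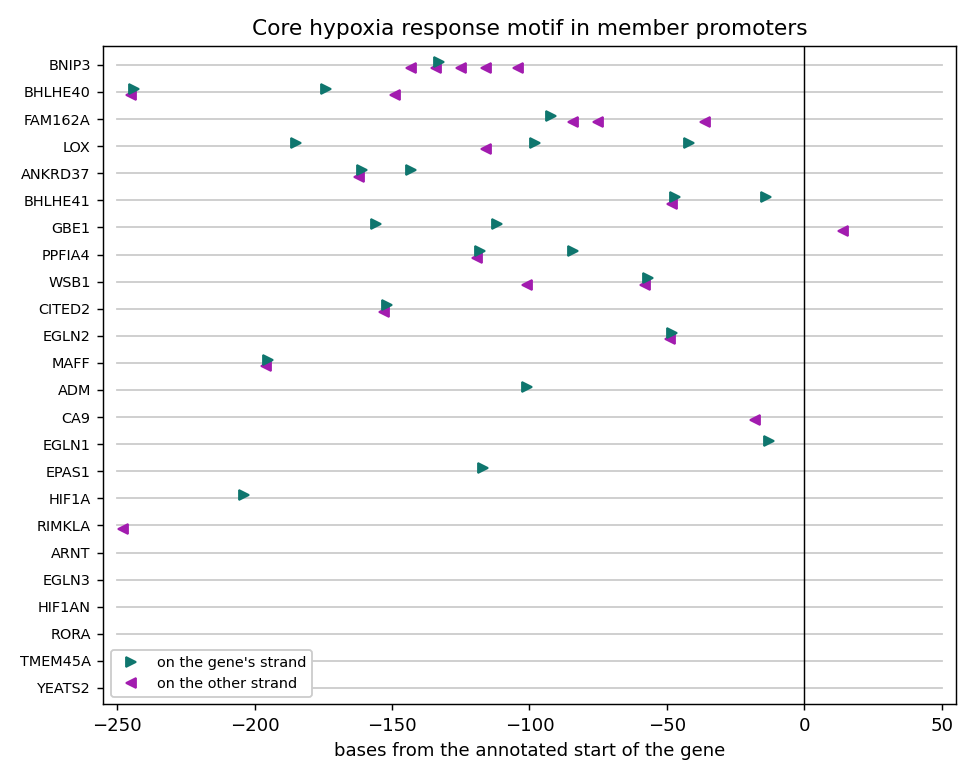
Positions of ACGTG or GCGTG in the promoter windows of 24 genes, in bases from the RefSeq start used (0), with right-pointing marks for copies on the gene's strand and left-pointing marks for copies on the other strand. BNIP3 has the most copies, 6, and 6 genes have none.

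Not all of the pathway was detected in NK-92. EPAS1, EGLN3, ADM (adrenomedullin, a vasodilator peptide), TMEM45A (a membrane protein) and ZNF395 (a transcription factor) were listed at 0 in all 10 libraries. CA9, the carbonic anhydrase of the cell surface, had 3 counts in replicate 1 of DFO at 24 h and 0 in the other 9 libraries. BHLHE41, a repressor related to BHLHE40, had 9 counts in replicate 2 of T003 at 6 h and 0 elsewhere. These 7 genes were under 0.1 CPM in every library and are called silent here. A count of 0 allows up to 3 counts, or 0.0209 to 0.0278 CPM depending on the library, which covers counting error only. Of 19276 protein-coding genes listed, 4456 (23.1%) were at 0 throughout. All 37 mitochondrial genes were at 0 as well, so a 0 in these data need not mean that the RNA was absent.

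PPFIA4, a scaffold protein of the liprin family, passed the filter at the edge of detection. It had 18 and 24 counts with DFO at 6 h, 23 and 0 with DFO at 24 h, 0 and 9 with T003 at 6 h, 10 and 15 with T003 at 24 h, and 11 in each untreated library. With DFO at 24 h and T003 at 6 h 1 of the 2 libraries was thus at 0 and the other was not. Among expressed members, averaged over all libraries and divided by the length of the canonical GENCODE transcript, BHLHE40 was highest at 55.1 CPM per kb. EGLN2 followed at 34.8 CPM per kb, VHL at 24.1, HIF1A at 23.6, YEATS2 at 20.97, FAM162A at 19.4, WSB1 at 16.7, ANKZF1 at 15.9 and HILPDA at 12.03. Of the HIF machinery lower in that order HIF1AN was at 11.04 CPM per kb, EGLN1 at 8.82 and ARNT at 6.38. VEGFA, the angiogenic growth factor, was at only 0.0744 CPM per kb.

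**Figure D2:**
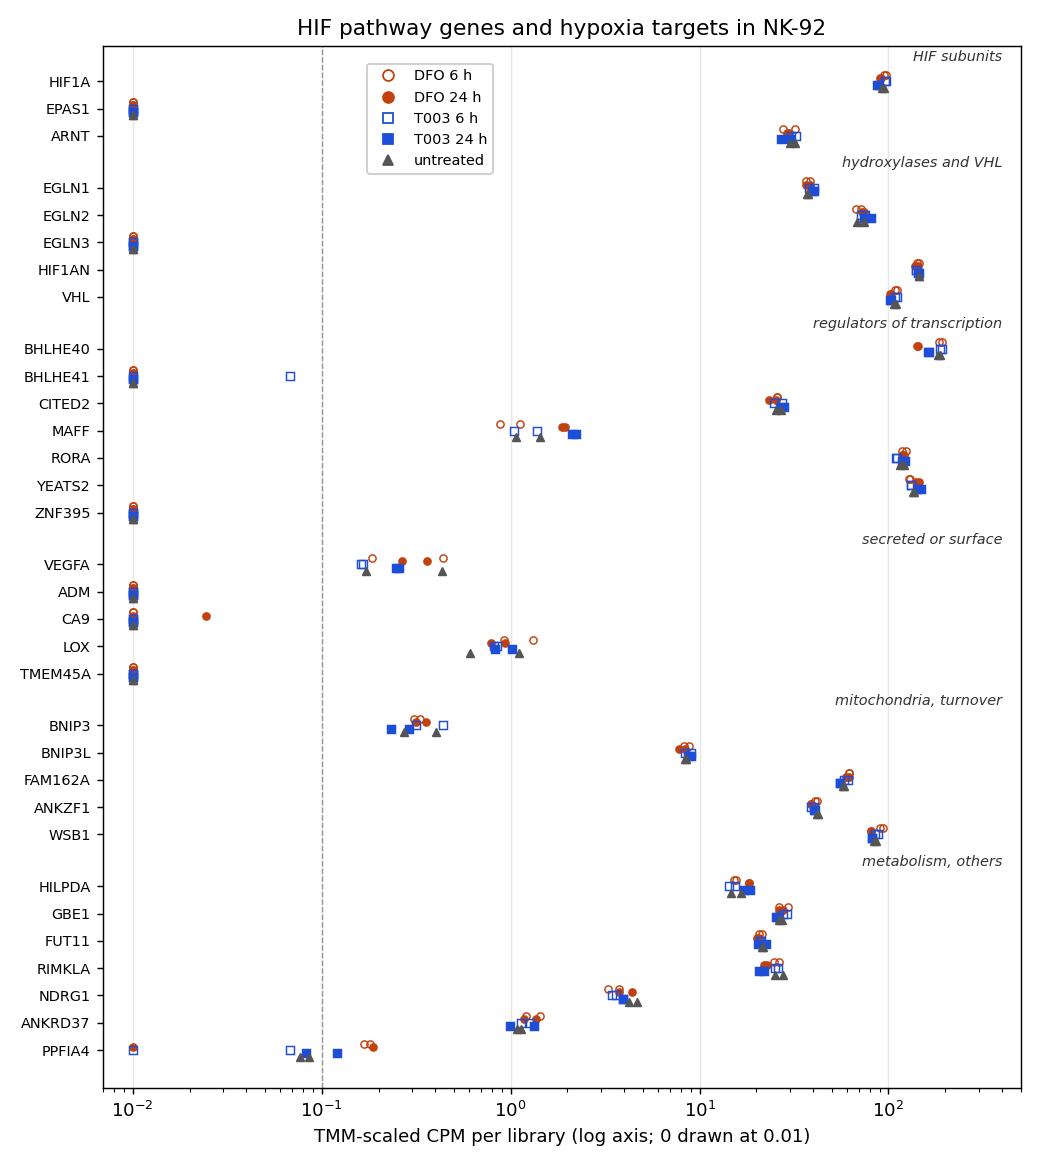
TMM-scaled CPM of the 32 genes in each of the 10 libraries on a log axis, grouped by role, with values of 0 drawn at 0.01 and the 0.1 CPM limit as a dashed line. Silent genes sit at the left edge, and HIF1A, VHL, HIF1AN, BHLHE40, RORA and YEATS2 stay at or above 87.1 CPM in every library.

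HIF1A (chromosome 14, 61695513 to 61748258, hg38) had 96.7 and 94.6 CPM with DFO at 6 h, 90.2 and 91.7 with DFO at 24 h, 96.0 and 97.2 with T003 at 6 h and 89.7 and 87.1 with T003 at 24 h, against 94.9 and 92.2 CPM in untreated cells. The lowest values were those at 24 h, and with DFO at 24 h and T003 at 24 h both libraries lay below both untreated ones. The log2 difference from untreated cells was -0.04 (SE 0.028, 95% interval -0.10 to 0.02, adjusted p = 0.49) with DFO at 24 h and -0.08 (SE 0.028, adjusted p = 0.0833) with T003 at 24 h, by edgeR's quasi-likelihood test. Neither passed. With a filter of 1 CPM in 2 libraries the T003 difference from untreated cells did (adjusted p = 0.0463). T003 at 24 h against 6 h passed too, as given below. Of the antisense transcripts that overlap its span HIF1A-AS3 had at most 0.195 CPM, HIF1A-AS2 at most 0.208 CPM, and HIF1A-AS1 averaged 0.0233 CPM. ARNT, the partner subunit, had 32.0 and 27.6 CPM with DFO at 6 h, 29.7 and 29.0 with DFO at 24 h, 30.4 and 32.3 with T003 at 6 h and 27.0 and 30.3 with T003 at 24 h, against 30.1 and 32.1 CPM in untreated cells. Its log2 difference was -0.08 (95% interval -0.25 to 0.08) with DFO at 24 h and -0.12 (-0.28 to 0.05) with T003 at 24 h.

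The hydroxylases use iron themselves, and EGLN1 is one of the HIF targets that feed back on the pathway. EGLN1 had 38.3 and 36.7 CPM with DFO at 6 h, 38.3 and 36.6 with DFO at 24 h, 37.9 and 40.6 with T003 at 6 h and 40.5 and 39.3 with T003 at 24 h, against 36.9 and 37.5 CPM in untreated cells. The DFO and untreated libraries overlapped at both times. The log2 difference was 0.01 at 6 h and 0.01 at 24 h with DFO (95% intervals both -0.09 to 0.11), and 0.10 (0.00 to 0.20, adjusted p = 0.201) with T003 at 24 h. EGLN2 had 67.6 and 71.9 CPM with DFO at 6 h, 72.1 and 74.7 with DFO at 24 h, 71.7 and 74.7 with T003 at 6 h and 80.4 and 74.6 with T003 at 24 h, against 67.8 and 74.3 CPM in untreated cells. The T003 libraries at 24 h lay above both untreated ones (log2 0.13, adjusted p = 0.153), the other groups overlapped them, and no comparison passed. EGLN2 shares its whole span with the readthrough transcript RAB4B-EGLN2, which ranged over the libraries between 0.614 and 7.49 CPM. With the readthrough counts added, the log2 difference of EGLN2 was -0.02 with DFO and 0.07 with T003 at 24 h, against 0.05 and 0.13 without them, and none was called.

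HIF1AN was the steadiest of the 17 members that averaged at least 10 CPM, with 1.05 times between its highest and lowest library. It had 146 and 142 CPM with DFO at 6 h, 144 and 138 with DFO at 24 h, 139 and 140 with T003 at 6 h and 143 and 145 with T003 at 24 h, against 145 and 144 CPM in untreated cells. VHL had 108 and 111 CPM with DFO at 6 h, 104 and 102 with DFO at 24 h, 111 and 108 with T003 at 6 h and 103 and 102 with T003 at 24 h, against 107 and 110 CPM in untreated cells. All 4 libraries at 24 h lay below the 6 others. The log2 difference of VHL from untreated cells at 24 h was -0.08 with DFO (SE 0.0267, adjusted p = 0.122) by edgeR's test. With T003 it was -0.08 (SE 0.0268, adjusted p = 0.0715), and neither passed. The T003 difference did pass with a filter of 1 CPM in 2 libraries (adjusted p = 0.0428).

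After 6 h no member changed by edgeR's test with either agent. With DFO 0 of 25 tested members were called, beside 0.0248% of all 20125 genes (0.0149% higher and 0.00994% lower), and 4 had an unadjusted p under 0.05, beside 2494 of all genes. DESeq2 called 1, WSB1, beside 522 of all genes, and limma-voom 0, beside 25 of all genes. With T003 0 of 25 were called by edgeR, beside 0.0298% of all genes (0.0248% higher and 0.00497% lower), 3 had an unadjusted p under 0.05, beside 1516 of all genes, and DESeq2 and limma-voom called 0. Both libraries with DFO lay above both untreated ones in 4 of 25 members and below them in 3, beside 21% and 22% of all genes. With T003 the counts were 4 above and 8 below, beside 19.5% and 19.8% of all genes. WSB1, a ubiquitin ligase subunit with a SOCS box, had 93.1 and 90.4 CPM with DFO at 6 h, against 86.2 and 84.2 CPM in untreated cells (log2 0.11, SE 0.0291, adjusted p = 0.209). FAM162A, a mitochondrial protein, had 61.9 and 61.6 CPM with DFO at 6 h, against 57.6 and 58.0 CPM in untreated cells (log2 0.10, adjusted p = 0.274). NDRG1, a gene of differentiation and stress that hypoxia strongly raises in many cells, had 3.26 and 3.77 CPM with DFO and 3.61 and 3.44 with T003 at 6 h, against 4.64 and 4.25 CPM in untreated cells. All 4 treated libraries lay below both untreated ones. Its log2 differences were -0.34 (SE 0.118, adjusted p = 0.283) and -0.33 (SE 0.118, adjusted p = 0.587), and both comparisons use the same untreated libraries. At 24 h it had 3.74 and 4.38 CPM with DFO (log2 -0.13) and 3.95 and 3.92 with T003 (log2 -0.18), and neither was called.

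Among the 17 members that averaged at least 10 CPM, the log2 difference from untreated cells at 6 h lay between -0.07 for YEATS2 and 0.11 for WSB1 with DFO. With T003 it lay between -0.10 for RORA and 0.09 for GBE1. The highest upper end of any 95% interval among the 17, not corrected for the number of genes, was 1.14-fold with DFO and 1.17-fold with T003 at 6 h. At 24 h it was 1.31-fold with DFO and 1.28-fold with T003, both for HILPDA. The median absolute log2 difference of these 17 with DFO at 6 h was 0.0313, against 0.052 over all 8905 tested genes at that level, and with T003 at 6 h it was 0.0448, against 0.0376. With DFO at 24 h it was 0.0789, against 0.0614 over all of them. With T003 at 24 h it was 0.0827, against 0.0759.

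**Figure D3:**
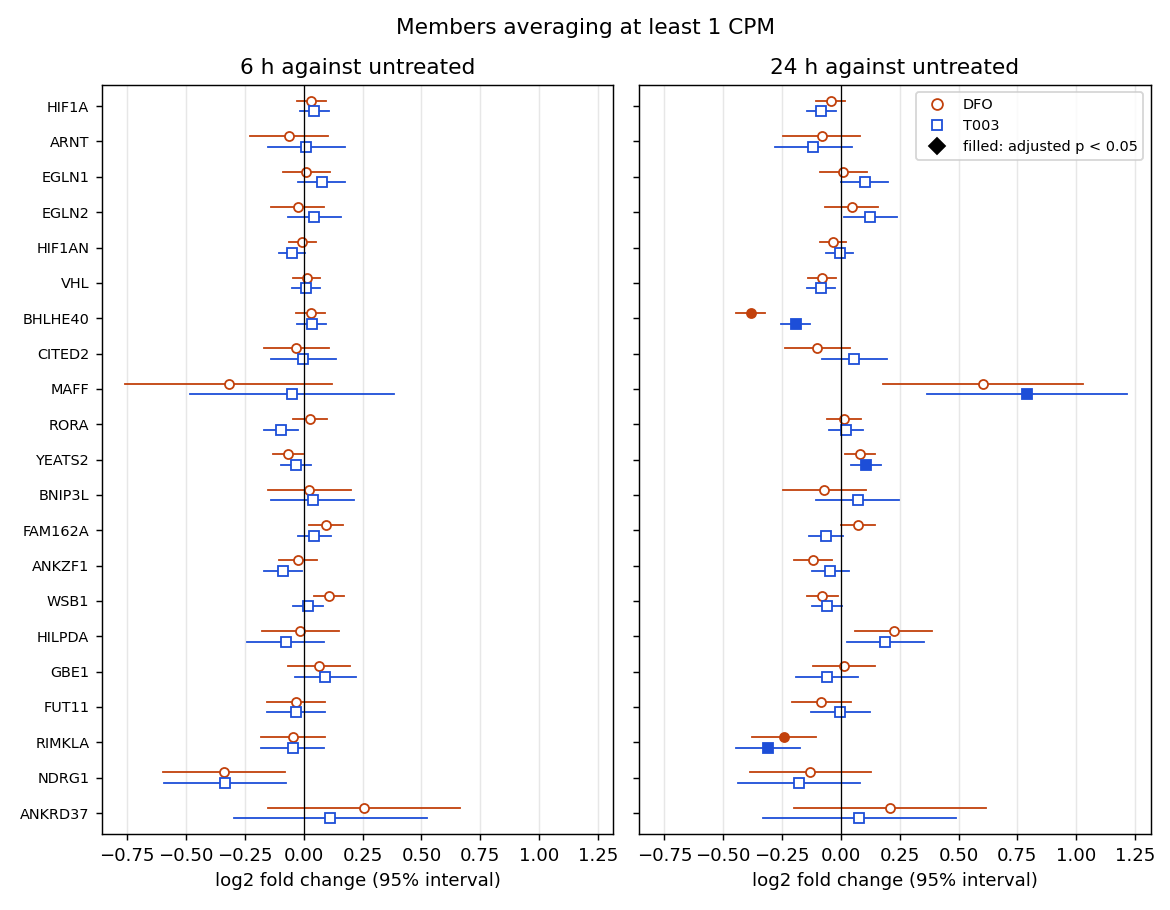
Log2 fold change against untreated cells with its 95% interval for the 21 members that averaged at least 1 CPM, DFO as circles and T003 as squares, at 6 h on the left and 24 h on the right, filled where the adjusted p was under 0.05. At 6 h no mark is filled, and at 24 h BHLHE40 and RIMKLA are filled below 0 with both agents and MAFF and YEATS2 above 0 with T003.

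After 24 h of DFO 2 of 25 tested members fell and 0 rose (8% of members, beside 6.7% of all genes, with 3.27% lower and 3.43% higher). Both libraries with DFO lay below both untreated ones in 10 of the 25 and above them in 5, beside 25.1% and 24.2% of all genes. The 2 that fell were BHLHE40 and RIMKLA. BHLHE40 (chromosome 3, 4979437 to 4985323), a basic helix-loop-helix repressor of immune and clock genes, had 143 and 142 CPM with DFO at 24 h, against 183 and 188 CPM in untreated cells. The groups were far apart (log2 -0.38, SE 0.0278, adjusted p = 2.70e-05), and the call held without each of the 10 libraries in turn, with an adjusted p of at most 0.000899. BHLHE40-AS1, which overlaps the gene by 525 bases, was at 0.710 to 1.52 CPM. RIMKLA (chromosome 1, 42380792 to 42424232), a ligase that makes N-acetylaspartylglutamate, had 22.0 and 22.7 CPM with DFO at 24 h, against 25.1 and 27.8 CPM in untreated cells (log2 -0.24, SE 0.0615, adjusted p = 0.0404). Its call was lost without untreated replicate 2 and without any library of T003 at 6 h, DFO at 24 h or T003 at 24 h, with an adjusted p of up to 0.349, and with only the compared libraries.

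In bulk RNA, fewer cells expressing a gene and less of its RNA per cell cannot be told apart. Several classic hypoxia genes showed no difference called by edgeR with DFO at 24 h. HILPDA, a lipid droplet protein that inhibits lipolysis, had 18.2 and 18.3 CPM, against 16.6 and 14.7 CPM in untreated cells, with no overlap (log2 0.22, 95% interval 0.06 to 0.39, adjusted p = 0.111). DESeq2 called it (adjusted p = 0.0469). ANKZF1, a factor of ribosome quality control, had 38.7 in both DFO libraries, against 42.4 and 41.7 CPM in untreated cells (log2 -0.12, adjusted p = 0.0859). With the filter of 1 CPM in 2 libraries it was called (adjusted p = 0.039). BNIP3L, a mitophagy receptor, had 8.33 and 7.74 CPM, against 8.38 and 8.50 CPM in untreated cells (log2 -0.07, 95% interval -0.25 to 0.11). CITED2, which competes with HIF for its coactivators, had 23.4 and 25.5 CPM, against 25.3 and 27.1 CPM in untreated cells (log2 -0.10, adjusted p = 0.456). GBE1, the glycogen branching enzyme, had 26.3 and 27.6 CPM, against 26.2 and 27.3 CPM in untreated cells (log2 0.01, 95% interval -0.12 to 0.14). FUT11, a fucosyltransferase, had 20.6 and 20.1 CPM, against 21.7 and 21.4 CPM in untreated cells.

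Intervals were wide for the low members. VEGFA had 0.267 and 0.363 CPM with DFO at 24 h, against 0.431 and 0.172 CPM in untreated cells. Its untreated libraries enclosed those with DFO, and the 95% interval of the log2 difference ran from -1.02 to 1.14. BNIP3, a mitophagy receptor, had 0.316 and 0.355 CPM, against 0.403 and 0.273 CPM in untreated cells, with a log2 interval of -0.72 to 0.69. BNIP3 overlaps PPP2R2D, which was at 56.2 to 64.5 CPM, and has many processed pseudogenes. One of these, BNIP3P11, which lies within the span of ZNF107, was listed at 52.5 to 60.7 CPM, so the level of BNIP3 is uncertain. LOX, which crosslinks collagen, had 0.932 and 0.784 CPM, against 0.612 and 1.10 CPM in untreated cells. It lies wholly within the span of SRFBP1, which was at 20.7 to 25.4 CPM, and is uncertain too. ANKRD37, an ankyrin repeat protein, overlaps UFSP2 and LRP2BP and had 1.37 and 1.18 CPM, against 1.08 and 1.13 CPM in untreated cells (log2 0.21, adjusted p = 0.642).

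After 24 h of T003 2 of 25 members rose and 2 fell (16% of members, beside 12.5% of all genes, with 7.1% higher and 5.44% lower). Both libraries lay above both untreated ones in 6 of 25 and below them in 9, beside 25.9% and 26.9% of all genes. BHLHE40 had 161 and 163 CPM with T003 at 24 h, against 183 and 188 CPM in untreated cells (log2 -0.19, SE 0.0277, adjusted p = 0.00124). This call too held without each library in turn, with an adjusted p of at most 0.0233. RIMKLA had 20.7 and 21.9 CPM, against 25.1 and 27.8 CPM in untreated cells (log2 -0.31, SE 0.0616, adjusted p = 0.00719), and lost its call without untreated replicate 2 or T003 24 h replicate 1 (adjusted p of up to 0.0834). MAFF, a small Maf transcription factor that partners NRF2 and BACH proteins, had 2.23 and 2.11 CPM, against 1.43 and 1.07 CPM in untreated cells (log2 0.79, SE 0.193, adjusted p = 0.0216). With DFO at 24 h it had 1.86 and 1.95 CPM (log2 0.60, SE 0.193, adjusted p = 0.101). YEATS2, a histone acylation reader of the ATAC complex, had 142 and 149 CPM with T003, against 136 and 134 CPM in untreated cells (log2 0.11, SE 0.0288, adjusted p = 0.0332). The MAFF call was lost when untreated replicate 2 was left out, and when T003 24 h replicate 1 or 2 was (adjusted p of up to 0.187). The YEATS2 call was lost without either untreated library, either library of T003 at 6 h or T003 24 h replicate 2 (up to 0.244). It was also lost with no filter and with only the compared libraries. MAFF overlaps TMEM184B by 117 bases, a gene at 36.4 to 41.3 CPM whose log2 difference with T003 at 24 h was 0.09 (adjusted p = 0.163).

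The agents were compared directly at each time. At 24 h BHLHE40 was lower with DFO, at 143 and 142 CPM, than with T003, at 161 and 163 CPM (log2 -0.19, SE 0.0278, adjusted p = 0.012). It was the only one of 25 members called (4%, beside 1.34% of all genes, with 0.457% higher and 0.884% lower), and leaving out any of the 4 libraries compared ended the call (adjusted p of up to 0.145). FAM162A had 61.9 and 59.8 CPM with DFO, against 55.2 and 55.5 CPM with T003, without overlap (log2 0.14, SE 0.0322, adjusted p = 0.0723). It passed with DESeq2 and with a filter of 1 CPM in 2 libraries. For the 17 members at 10 CPM or more, differences between the agents at 24 h ranged from -0.19 for BHLHE40 to 0.14 for FAM162A on the log2 scale. For HIF1A the difference was 0.04 (95% interval -0.02 to 0.10) and for EGLN1 -0.09 (-0.19 to 0.01). At 6 h edgeR called 0 of 25 members and 0% of all genes, with 2 members and 1334 of all genes at an unadjusted p under 0.05 and 0 members called by DESeq2 or limma-voom. The libraries with DFO lay above those with T003 in 8 of 25 and below in 1 at 6 h, beside 17.8% and 17.7% of all genes. At 24 h they lay above in 6 and below in 7, beside 21.4% and 22.5%. The interaction of agent and time called 0 of 25, beside 0.0199% of all genes (0.00497% higher and 0.0149% lower), with 4 members and 1851 of all genes at an unadjusted p under 0.05. DESeq2 called BHLHE40 there, beside 188 of all genes, and limma-voom no member, beside 19 of all genes. The edgeR value for BHLHE40 was -0.19 (adjusted p = 0.176).

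Comparing 24 h with 6 h of the same agent gave more calls. The untreated cells are not part of these contrasts, but their libraries entered the estimate of the spread. With DFO 2 of 25 members rose and 2 fell (16%, beside 9.89% of all genes, with 5.29% higher and 4.6% lower). Both libraries at 24 h lay above both at 6 h in 4 and below in 8, beside 24.8% and 25.1% of all genes. BHLHE40 had 143 and 142 CPM at 24 h, against 185 and 193 CPM at 6 h (log2 -0.41, SE 0.0278, adjusted p = 8.19e-06). WSB1 had 80.9 and 80.5 CPM at 24 h, against 93.1 and 90.4 CPM at 6 h (log2 -0.18, SE 0.0292, adjusted p = 0.00245). MAFF had 1.86 and 1.95 CPM at 24 h, against 0.880 and 1.12 CPM at 6 h (log2 0.92, SE 0.197, adjusted p = 0.0130). YEATS2 had 145 and 141 CPM at 24 h, against 129 in both libraries at 6 h (log2 0.15, adjusted p = 0.00808). VHL (log2 -0.09, adjusted p = 0.0572), HILPDA (log2 0.24, adjusted p = 0.0718) and RIMKLA (log2 -0.20, adjusted p = 0.0753) were not called by edgeR. DESeq2 called each of them. HIF1A, FAM162A and RORA were not called by edgeR either (log2 -0.07, -0.02 and -0.01). The BHLHE40 and WSB1 calls held without each library in turn. The YEATS2 call was lost without DFO 24 h replicate 1 (adjusted p = 0.0573). The MAFF call was lost without DFO 6 h replicate 1 or either library of DFO at 24 h (up to 0.113).

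With T003 4 of 25 members rose and 5 fell at 24 h relative to 6 h (36%, beside 13.5% of all genes, with 7.55% higher and 5.93% lower). These shares are not matched for level. Of the 25 members 17 averaged at least 10 CPM, beside 8905 of the 20125 genes. With a filter of 1 CPM in 2 libraries 2996 of 12842 genes were called, against 2714 of 20125 without it. Both libraries at 24 h lay above both at 6 h in 9 and below in 9, beside 26.4% and 26.5% of all genes. BHLHE40 had 161 and 163 CPM at 24 h, against 187 and 193 CPM at 6 h (log2 -0.22, SE 0.0278, adjusted p = 0.000384). MAFF had 2.23 and 2.11 CPM at 24 h, against 1.04 and 1.38 CPM at 6 h (log2 0.84, adjusted p = 0.0152). HIF1A had 89.7 and 87.1 CPM at 24 h, against 96.0 and 97.2 CPM at 6 h (log2 -0.13, SE 0.028, adjusted p = 0.011). In none of these 3 did the times overlap. VHL, described above, fell by 0.09 on the log2 scale (adjusted p = 0.0426). FAM162A had 55.2 and 55.5 CPM at 24 h, against 60.9 and 58.4 CPM at 6 h (log2 -0.11, adjusted p = 0.04998). RIMKLA had 20.7 and 21.9 CPM at 24 h, against 26.0 and 25.1 CPM at 6 h (log2 -0.26, adjusted p = 0.0158). These were the other members that fell. HILPDA had 18.6 and 17.1 CPM at 24 h, against 15.4 and 14.3 CPM at 6 h (log2 0.26, adjusted p = 0.0376). RORA, a nuclear receptor, had 122 and 119 CPM at 24 h, against 110 and 112 CPM at 6 h (log2 0.12, adjusted p = 0.035). In untreated cells RORA had 121 and 116 CPM, which is the level seen with T003 at 24 h rather than at 6 h. With DFO at 6 h RORA had 123 and 118 CPM. YEATS2 had 142 and 149 CPM at 24 h, against 132 in both libraries at 6 h (log2 0.14, adjusted p = 0.00784). HILPDA lost its call without either library of T003 at 6 h, DFO at 24 h or T003 at 24 h. RORA lost its call without any single library of T003 at 6 h or 24 h. The calls of YEATS2, RIMKLA and MAFF also depended on single T003 libraries. YEATS2 and RIMKLA each needed both 6 h libraries, with replicate 2 at 24 h for YEATS2 and replicate 1 at 24 h for RIMKLA. MAFF needed both 24 h libraries and replicate 1 at 6 h. Over all removals and other settings the log2 differences ran from 0.10 to 0.17 for YEATS2, -0.31 to -0.23 for RIMKLA and 0.65 to 1.06 for MAFF. The count of called members depended on the libraries that entered the fit. It was 2 without replicate 1 or replicate 2 of T003 at 6 h, 3 without T003 24 h replicate 1 and 2 without T003 24 h replicate 2. HIF1A lost its call without replicate 2 of T003 at 6 h or at 24 h (up to 0.0894). BHLHE40 was called each time, with an adjusted p of at most 0.00794 over all 10 removals. VHL was called in 3 of the 10 removals and FAM162A in 2. Both lost their calls with only the compared libraries, and FAM162A also with limma-voom and with RAB4B-EGLN2 counts added to EGLN2.

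**Figure D4:**
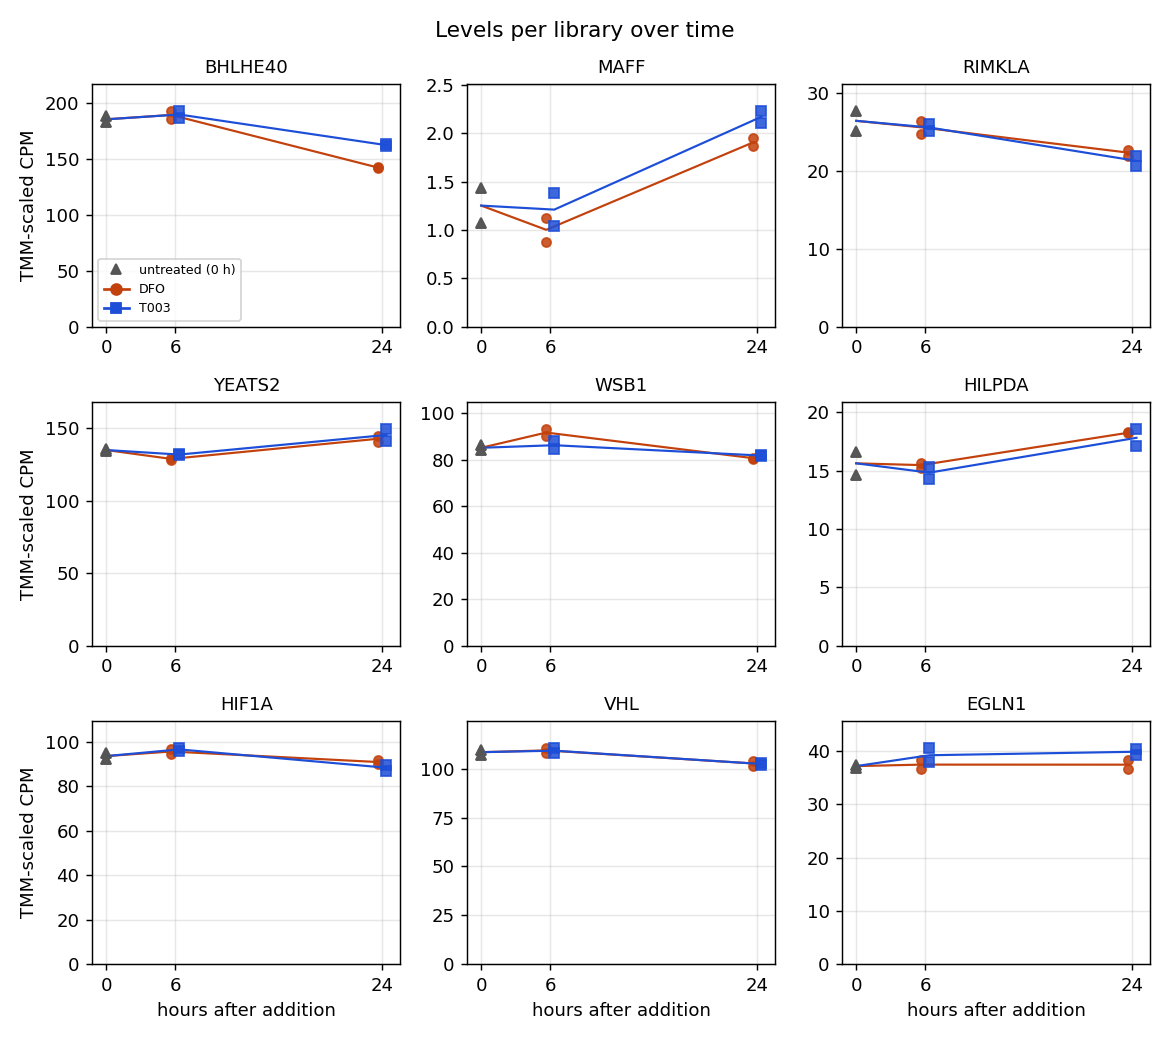
TMM-scaled CPM per library at 0 h (untreated), 6 h and 24 h for 9 members, with lines through the means of 2 libraries for DFO (circles) and T003 (squares). BHLHE40 and RIMKLA are lower and MAFF higher at 24 h, while EGLN1 stays between 36.6 and 40.6 CPM in all libraries.

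The other genes of the pathway were read from 3 lists. Of 20 partners of the HIF machinery 17 were tested, and HIF3A, ARNT2 and CITED4 were listed at 0. With DFO at 24 h 4 of the 17 fell and 0 rose, beside 3.27% lower and 3.43% higher over all genes. The list median was -0.0373 on the log2 scale, against -0.00229 over all genes. CREBBP and EP300, the acetyltransferases that act as HIF coactivators, fell by 0.17 (SE 0.0277, adjusted p = 0.00373) and 0.17 (SE 0.0339, adjusted p = 0.0144), and USP33, a deubiquitinase, by 0.15 (adjusted p = 0.0403). HSP90AA1, a chaperone, fell by 0.11 (adjusted p = 0.0473). With T003 at 24 h only HSP90AA1 of the 17 passed, beside 12.5% of all genes, and it fell by 0.22 (adjusted p = 0.000696). Between the agents at 24 h CREBBP averaged 186 CPM with DFO, against 204 CPM with T003 (log2 -0.14, adjusted p = 0.0416). EP300 was not called between the agents (adjusted p = 0.177).

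Of 21 genes listed as glycolytic hypoxia targets, all tested, 3 rose and 3 fell after 24 h of DFO, beside 3.43% higher and 3.27% lower over all genes. After 24 h of T003 6 rose and 2 fell, beside 7.1% higher and 5.44% lower over all genes. HK2, a hexokinase, averaged 206 CPM with DFO and 205 CPM with T003, against 163 CPM in untreated cells. Its log2 differences were 0.34 (adjusted p = 0.000331) and 0.33 (adjusted p = 0.000255). MXI1, in this list though not a glycolytic enzyme, is a MAX partner that opposes MYC. It averaged 17.9 CPM with DFO and 20.1 with T003, against 12.1 CPM in untreated cells. SLC2A3, a glucose transporter, averaged 88.2 CPM with DFO and 94.8 with T003, against 77.1 CPM in untreated cells (adjusted p = 0.0206 and 0.00115). HK1, another hexokinase, averaged 260.1 CPM with DFO and 246 with T003, against 277 CPM in untreated cells (adjusted p = 0.042 and 0.000805). The list medians were 0.00335 with DFO and 0.0035 with T003, against -0.00229 and -0.00688 over all genes. Of 36 other hypoxia targets 28 were tested. With DFO at 24 h 1 rose and 5 fell, and with T003 2 rose and 5 fell, beside the same shares of all genes. The list medians were -0.0647 and -0.0327, against -0.00229 and -0.00688 over all genes. KDM7A, a histone demethylase, averaged 15.9 CPM with DFO and 14.9 with T003, against 23.9 CPM in untreated cells. PLOD2, a lysyl hydroxylase of collagen, averaged 6.12 CPM with DFO and 6.04 with T003, against 9.17 CPM in untreated cells. KLHL24, a ubiquitin ligase adaptor, averaged 6.40 CPM with DFO and 7.73 with T003, against 10.5 CPM in untreated cells (adjusted p = 0.00504 and 0.0338). At 6 h 0 members of the 3 lists were called with either agent by edgeR. At an unadjusted p under 0.05 there were 4, 7 and 3 with DFO and 2, 4 and 4 with T003, for partners, glycolytic and other targets in that order, beside 2494 and 1516 of all 20125 genes.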

How the data were processed

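The authors deposited 1 table of estimated counts per gene symbol, not normalized, with whole numbers only. Per the labels' design text, fastp 0.21.0 did the trimming, HISAT2 2.2.1 the alignment (hg38), and StringTie 2.1.6 gave the counts for RefSeq genes. How strand was handled is not given, so overlapping and antisense genes may share reads. Columns named as not treated were matched to the untreated 0 h libraries by number. Whether replicates came from separate cultures is not stated, so the p-values reflect the spread between libraries, which may be technical.

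All 10 libraries entered 1 edgeR 4.0.16 quasi-likelihood model (R 4.3.3) with group as its term, TMM scaling and filterByExpr (minimum count 10), which left 20125 genes. P-values were Benjamini-Hochberg adjusted over these, and an adjusted p under 0.05 is called. SE is the log2 fold change over the square root of F. The procedure was tested on simulated data for DFO at 24 h against untreated cells. Changes were placed only in genes averaging over 50 counts per library, which leaves out VEGFA, BNIP3 and PPFIA4. It recovered 50% of 100 changes of 0.5 on the log2 scale and 80% of 100 changes of 1. Of 140 genes called there, 10 had been given no change. Alternatives were RLE scaling, other filters, DESeq2 1.42.0, limma-voom (limma 3.58.1), a replicate block, the compared libraries alone and removal of each library. Adding RAB4B-EGLN2 to EGLN2 was chosen after seeing the data. Members and lists were chosen with earlier results of these data known. Values per library are given for members called in any comparison and for the HIF machinery, and from each list the called genes with the 3 smallest p are named, except 1 that is not reported here. Promoters and gene positions are from RefSeq GRCh38.p14, which matched 51616 of 54628 symbols and 31 of 32 members. CPM per kb uses GENCODE transcript lengths, which may not be the isoforms of NK-92.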

Additional observations from a re-analysis of the deposited data

How the results depend on the processing

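RLE scaling left every count of called members within 1.5 times, as did limma-voom and, chosen after the data were seen, adding RAB4B-EGLN2 to EGLN2. With DESeq2 the count was 1 for DFO at 6 h, 2 between the agents at 24 h, 7 for DFO at 24 h against 6 h and 1 for the interaction. Over all 20125 genes DESeq2 called 522, 888, 2533 and 188 in these comparisons, against 5, 270, 1991 and 4 with edgeR. More calls with DESeq2 were thus not particular to the members. A filter of 1 CPM in 2 libraries gave 2 between the agents at 24 h, beside 446 of all 12842 genes it kept. Against untreated cells it added calls of HIF1A and VHL for T003 at 24 h and of ANKZF1 for DFO at 24 h. It also added RIMKLA and VHL for DFO at 24 h against 6 h. With only the compared libraries DFO at 24 h gave 1, beside 851 of 18962 genes. With the replicate number as a block it also gave 1, BHLHE40, beside 1185 of 20125 genes. The block also ended the calls of VHL and FAM162A for T003 at 24 h against 6 h. The replicate numbers showed no clear shared effect, since 1 of 10 correlations between groups exceeded 0.1 (range -0.14 to 0.14). This does not settle whether the samples were paired. Without 1 library at a time the count ran from 1 to 2 for DFO at 24 h, 1 to 4 for T003 at 24 h, 0 to 1 between the agents at 24 h, 2 to 4 for DFO and 2 to 8 for T003 at 24 h against 6 h, and stayed at 0 at 6 h and for the interaction. The group left with 1 library was assumed to vary like the others, and such fits rest on fewer samples. The number of calls over all genes moved with the library left out as well. No call of a single member reversed under any of these alternatives. The number of silent members was 7 with RLE scaling as well, and 10 with a limit of 0.5 CPM, which adds VEGFA, BNIP3 and PPFIA4. Members under 1 CPM have wide intervals, and depth limits what they can show.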

Other observations

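RAB4B-EGLN2, the readthrough transcript over EGLN2, had 0.614 to 2.89 CPM in the 8 treated libraries, against 7.49 and 2.05 CPM in the untreated ones. Its log2 difference with T003 at 6 h was -2.78 (SE 0.806, adjusted p = 0.486), and the high value belongs to 1 untreated library. The pseudogene BNIP3P11 was listed at a mean of 56.1 CPM over the 10 libraries, against a mean of 0.327 CPM for BNIP3.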
